A study of Homo sapiens with 6 samples.

Results

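Serum response factor (SRF), its coactivators and the actin-binding proteins of the ABLIM family were followed in cardiomyocytes that had been differentiated from WTC11, an induced pluripotent stem cell line of human origin in wide use. The members were the rows with the symbols SRF, MYOCD, MRTFA, MRTFB, ABRA, ABLIM1 and ABLIM3, which are 7 of the 38557 genes listed. All 7 passed the filter on low counts, as did 16107 genes in all. ABLIM3 was selected on its difference in counts between media, so the values of ABLIM3 are a description and carry no test, and the other 6 were taken for their relation to it and to SRF. The cells had been kept in RPMI with B27, a serum-free supplement, or in DMEM with added fatty acids, with 3 biological replicates a medium, and RNA was sequenced after selection of mRNA. The labels give the cells as wild type, and say nothing of what the media contained or how long the cells were in them. All libraries come from 1 line, and nothing says whether the replicates were separate differentiations, so p-values measure the spread between these libraries.

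SRF is a transcription factor that binds the CArG box, a short element with CC, a run of A and T, and GG. It drives actin, myosin and other contractile genes when bound by myocardin (MYOCD) or by the myocardin-related factors MRTFA and MRTFB, and immediate early genes when bound by ETS factors of the ELK family. Monomeric actin holds the myocardin-related factors in the cytoplasm, so that actin polymerisation releases them to the nucleus. ABRA, also called STARS, is a striated muscle protein that binds actin and promotes this release, and the ABLIM proteins carry LIM domains and a villin headpiece that binds actin filaments, and have been described as partners of ABRA.

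The promoter of SRF is shown because it holds the element that SRF itself binds, and that of ABLIM3 because this gene was the one picked for its difference between media. Both run from 250 bases before the RefSeq start to the first 20 bases of the transcript (GRCh38.p14, plus strand, at chr6:43171019-43171288 and chr5:149141243-149141512), and capitals mark CArG boxes.
SRF: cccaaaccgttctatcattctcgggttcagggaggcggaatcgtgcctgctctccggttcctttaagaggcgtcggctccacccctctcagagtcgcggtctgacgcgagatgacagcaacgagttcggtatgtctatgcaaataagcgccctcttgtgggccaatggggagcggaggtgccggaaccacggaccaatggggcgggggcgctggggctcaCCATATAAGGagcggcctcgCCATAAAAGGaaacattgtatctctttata
ABLIM3: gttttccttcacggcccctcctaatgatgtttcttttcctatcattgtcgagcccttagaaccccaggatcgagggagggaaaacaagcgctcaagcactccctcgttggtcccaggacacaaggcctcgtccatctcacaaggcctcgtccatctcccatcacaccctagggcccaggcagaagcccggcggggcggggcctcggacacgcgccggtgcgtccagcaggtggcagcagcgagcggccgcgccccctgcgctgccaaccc
The SRF sequence holds 2 CArG boxes, at -30 to -21 and at -10 to -1 from the start. SRF has 2 RefSeq starts, and the other had no box from 250 bases before it to 50 bases after it. The upstream start of ABLIM3 holds none, and the same was true of its other RefSeq start. Of the 7 members, 5 matched the table (all but MYOCD and ABRA), with 6 starts for ABLIM1, 3 for MRTFA and 4 for MRTFB, none of which had a CArG box in the window of 250 bases before to 50 bases after the start. The box reads the same on both strands and was found in 1.29% of all 35116 promoters of that length. A match describes letters and does not show that SRF is bound there.

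ABLIM3 had 69, 143 and 166 counts in RPMI plus B27 (replicates 1 to 3) and 1560, 679 and 1373 in DMEM plus fatty acids. Scaled to a common library total by the trimmed mean of M values (TMM), which gives the CPM used below, these were 2.60, 6.08 and 6.19 against 67.2, 22.7 and 40.7. Every DMEM plus fatty acids library was above every RPMI plus B27 library, and replicate 1 held both the lowest value in RPMI plus B27 and the highest in DMEM plus fatty acids. The mean was 4.96 ± 2.04 CPM in RPMI plus B27 and 43.5 ± 22.4 CPM in the other medium (SD, n = 3 each), a fitted log2 fold change of 3.13 ± 0.48 (SE; positive values are higher in DMEM plus fatty acids). Within replicate numbers the log2 difference was 4.69, 1.90 and 2.72. The size of the difference thus varied between replicates, while its direction was the same in all 3.

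ABLIM1 did not show this pattern. This widely expressed member of the family had 827.8, 721.6 and 752.4 CPM in RPMI plus B27 and 881.6, 707.2 and 580.2 CPM in DMEM plus fatty acids. The media overlapped, and the highest and the lowest of the 6 values were both in DMEM plus fatty acids. Its log2 fold change was -0.09 ± 0.18 (95% interval -0.50 to 0.33, adjusted p 0.841, edgeR quasi-likelihood test with Benjamini-Hochberg adjustment over all genes). The value was 0.05 without DMEM plus fatty acids replicate 3. As a share of the summed counts of ABLIM1 and ABLIM3, ABLIM3 made up 0.313% to 0.836% in RPMI plus B27 and 3.11% to 7.08% in DMEM plus fatty acids. ABLIM1 therefore supplied most of these counts in each of the 6 libraries.

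**Figure D1:**
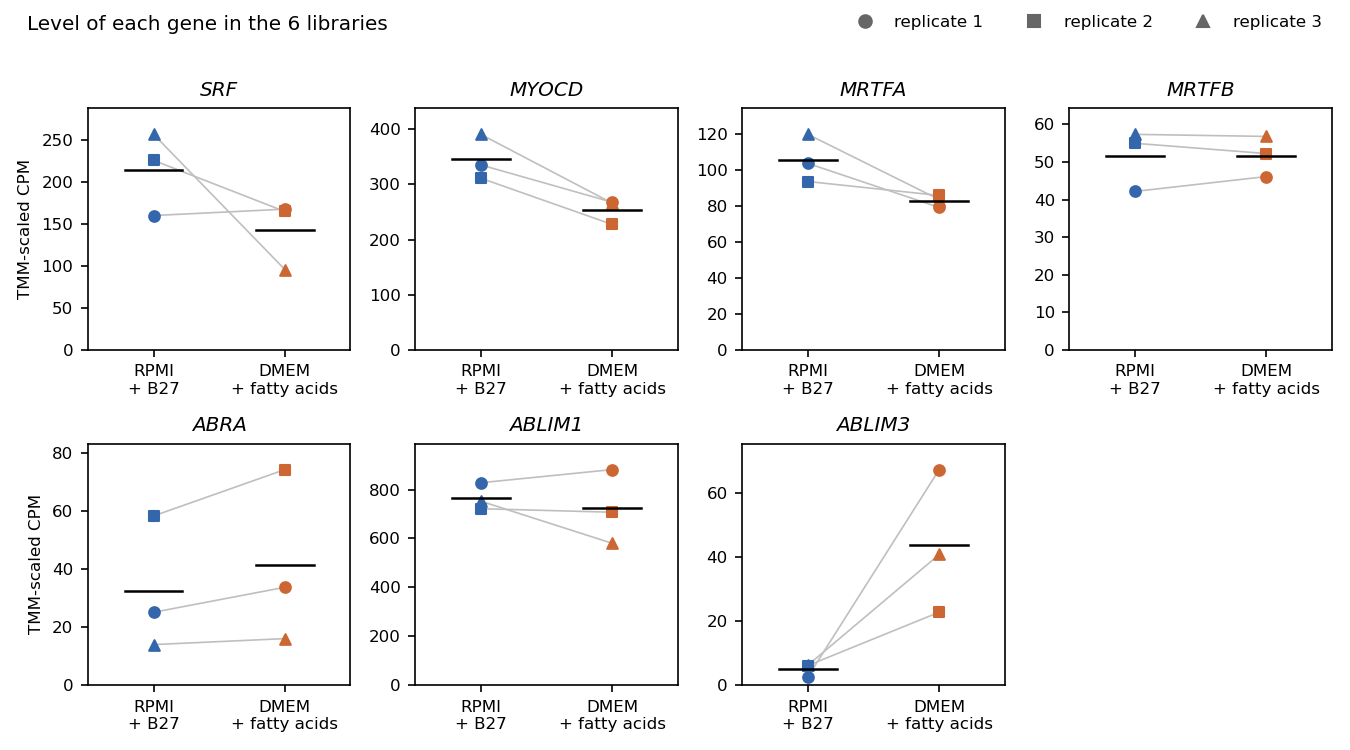
TMM-scaled CPM of the 7 members in each library, by medium, with lines joining libraries of the same replicate number and black bars for the mean of 3. ABLIM3 lies at 2.60 to 6.19 CPM in RPMI plus B27 and at 22.7 to 67.2 CPM in DMEM plus fatty acids, whereas ABRA is ordered by replicate number in both media.

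Of the other 6 members, 0 passed at an adjusted p under 0.05, where 1.36% of the 16107 genes did (219 genes). At an unadjusted p under 0.05 there were 2 of the 6, MYOCD and MRTFA, against 17.7% of all genes. The DESeq2 Wald test called 0 of the 6, and so did edgeR once the replicate number entered as a block, where 4.78% of all genes passed. Adjusted p values with the block were 0.241 for SRF, 0.0831 for MYOCD, 0.142 for MRTFA, 0.945 for MRTFB, 0.149 for ABRA and 0.696 for ABLIM1 (edgeR). Values given for single members below are without the block unless stated. MYOCD and MRTFA were also the 2 of these 6 whose media did not overlap, and 25.6% of all genes had no overlap.

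SRF had 159.7, 225.4 and 256.3 CPM in RPMI plus B27 and 167.3, 164.5 and 95.5 CPM in DMEM plus fatty acids. The media overlapped, because replicate 1 in RPMI plus B27 was below replicates 1 and 2 in DMEM plus fatty acids. The log2 fold change was -0.59 ± 0.26 (95% interval -1.19 to 0.02, adjusted p 0.298, edgeR). Within replicate numbers the log2 difference was 0.07, -0.45 and -1.42, so that the libraries numbered 3 were farthest apart. Without DMEM plus fatty acids replicate 3 the fitted value was -0.36.

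MYOCD, the coactivator found in heart and smooth muscle, had 335.6, 311.5 and 391.0 CPM in RPMI plus B27 and 267.9, 227.6 and 266.3 CPM in DMEM plus fatty acids. Each RPMI plus B27 library was above each DMEM plus fatty acids library, and the difference had the same sign in all 3 replicate numbers (-0.33, -0.45 and -0.55). The mean went from 346.0 ± 40.8 to 253.9 ± 22.8 CPM (SD, n = 3 each), a log2 fold change of -0.45 ± 0.14 (95% interval -0.77 to -0.12, adjusted p 0.165, edgeR). It did not pass over all genes.

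MRTFA, the broadly expressed coactivator held in check by monomeric actin, had 103.8, 93.7 and 120.0 CPM against 79.3, 85.9 and 83.7 CPM. The media did not overlap, and replicate 2 showed the smallest gap. Its log2 fold change was -0.35 ± 0.12 (95% interval -0.64 to -0.06, adjusted p 0.203, edgeR). MRTFB, its close relative, had 42.2, 55.0 and 57.3 CPM against 46.1, 52.2 and 56.8 CPM. The media overlapped over almost their whole range (log2 fold change 0.01 ± 0.15, 95% interval -0.36 to 0.37, adjusted p 0.987). That value changed sign without RPMI plus B27 replicate 1 (-0.12), without DMEM plus fatty acids replicate 3 (-0.06) and with DESeq2 size factors (-0.0020).

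ABRA had 25.1, 58.3 and 13.9 CPM in RPMI plus B27 and 33.7, 74.3 and 16.0 CPM in DMEM plus fatty acids. The order of the replicate numbers was the same in both media, with number 2 highest and number 3 lowest, and the spread between them was larger than the gap between media. The log2 fold change was 0.35 ± 0.65 (95% interval -1.16 to 1.86, adjusted p 0.816, edgeR). Within replicate numbers DMEM plus fatty acids was higher by 0.43, 0.35 and 0.20 on the log2 scale. With the replicate number as a block the standard error went to 0.11 (0.33, 95% interval 0.06 to 0.60), and the adjusted p of 0.149 did not pass. Without DMEM plus fatty acids replicate 2 the unblocked value was -0.38, and without RPMI plus B27 replicate 3 it was -0.01.

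**Figure D2:**
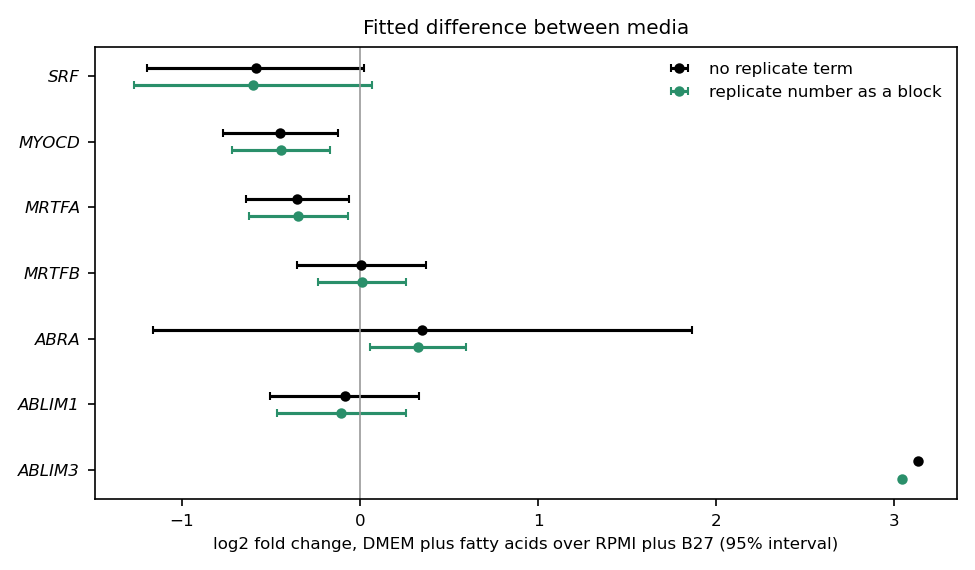
Fitted log2 fold change of each gene (above 0, higher in DMEM plus fatty acids), with 95% intervals, without (black) and with (green) the replicate number as a block. ABLIM3 is drawn without an interval because it was picked for this difference, and the interval of ABRA narrows from -1.16 to 1.86 to 0.06 to 0.60 with the block.

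Ratios of members within a library need no scaling, and 3 of them were compared by exact two-sided permutation tests, whose smallest possible p with 3 libraries a medium is 0.1. MRTFA made up 71.1%, 63.0% and 67.7% of the summed counts of MRTFA and MRTFB in RPMI plus B27 and 63.2%, 62.2% and 59.6% in DMEM plus fatty acids. Replicate 2 of RPMI plus B27 fell within the range of the other medium (difference of -5.61 percentage points, exact permutation p 0.2, adjusted over the 3 ratios 0.3). The log2 ratio of MYOCD to SRF counts was 1.07, 0.47 and 0.61 against 0.68, 0.47 and 1.48 (exact permutation p 0.6, adjusted 0.6). The log2 ratio of ABLIM1 to SRF counts was 2.37, 1.68 and 1.55 against 2.40, 2.10 and 2.60 (exact permutation p 0.2, adjusted 0.3). Within replicate numbers the differences of the MRTFA share were -7.89, -0.84 and -8.09 percentage points and those of the ABLIM1 to SRF ratio 0.02, 0.42 and 1.05, each of 1 sign and at the smallest p of 0.25 that a sign-flip test of 3 pairs can give. None of these tests could have reached 0.05.

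Levels were compared between genes only as CPM per kilobase of annotated exon. In RPMI plus B27 the order of the means was ABLIM1 (76.4 ± 5.44), SRF (50.9 ± 11.7), MYOCD (39.0 ± 4.60), MRTFA (16.2 ± 2.03), ABRA (11.8 ± 8.38), MRTFB (3.11 ± 0.49) and ABLIM3 (0.69 ± 0.28 CPM per kilobase, SD, n = 3). SRF and MYOCD overlapped in their libraries, as did MRTFA and ABRA, and the other neighbours did not. In DMEM plus fatty acids ABLIM3 stood at 6.02 ± 3.10 CPM per kilobase and overlapped MRTFB at 3.12 ± 0.32. ABLIM1 was highest there too (72.0 ± 15.1), followed by SRF (33.9 ± 9.69), MYOCD (28.6 ± 2.57), ABRA (15.01 ± 10.8) and MRTFA (12.7 ± 0.52). SRF and MYOCD overlapped again, and ABRA overlapped SRF, MYOCD, MRTFA and ABLIM3. Annotated exon covers all isoforms, which makes these levels approximate.

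The genes lie on different chromosomes (GENCODE 29, GRCh38). SRF is at chr6:43171299-43181507, MYOCD at chr17:12665890-12768949, MRTFA at chr22:40410281-40636702, MRTFB at chr16:14071321-14266773, ABRA at chr8:106759483-106770245, ABLIM1 at chr10:114431113-114685003 and ABLIM3 at chr5:149141483-149260542. Exons of ABLIM3 overlap 2 antisense genes, those of MYOCD overlap 2, and those of MRTFA overlap SGSM3 on the other strand. TVP23CP2, a processed pseudogene, touches exons of MRTFB on the same strand. How strand was used in counting is not given in the sources used here. Reads that could not be assigned to 1 gene have a summary row of their own, which held 3.90% to 4.15% of all rows in each library. Whether the overlaps took reads from the members or added reads to them was not tested.

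Targets of SRF were examined next. Of 30 cytoskeletal and muscle genes known as SRF targets, 6 fell and 0 rose (20% of the list), beside 1.07% of all genes that fell. Their median log2 fold change was -1.19, beside 0.01 for all genes, and 24 of the 30 had no overlap between media, each of them lower, as did 12.8% of all genes in that direction. The 6 were TAGLN2, TPM4, TPM2, LMOD1, ACTB and CALD1, and 13 of 30 fell with the replicate number as a block, where 3.42% of all genes did. The list was written with the fall of LMOD1 and TPM2 already known, so its count is not independent evidence of a direction.

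TAGLN2 (transgelin 2, an actin-bundling protein of non-muscle cells) fell from 33.6, 24.7 and 26.4 CPM to 2.45, 4.01 and 4.24 CPM (log2 fold change -2.98 ± 0.26, adjusted p 0.0141, edgeR). TPM4 (a cytoskeletal tropomyosin) went from 296.8 ± 50.3 to 106.4 ± 15.7 CPM and TPM2 (beta tropomyosin) from 694.3 ± 67.6 to 328.2 ± 30.3 CPM (SD, n = 3; edgeR adjusted p 0.0252 and 0.0292). LMOD1 (leiomodin 1, an actin nucleator of smooth muscle) had 198.5, 161.6 and 185.2 CPM against 67.3, 68.5 and 41.1 CPM (-1.62 ± 0.21, adjusted p 0.0292, edgeR). The 2 genes of the list with a value above 0 were the non-muscle genes MYH9 (0.02 ± 0.19) and ACTG1 (0.0035 ± 0.16), named after their values were seen. The cardiac targets JPH2 (junctophilin 2, -0.57 ± 0.24) and ACTC1 (cardiac alpha actin, -1.13 ± 0.50) did not pass (adjusted p 0.272 and 0.298, edgeR), and were likewise named after their values were seen.

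Leaving out any library but RPMI plus B27 replicate 3 moved the count by over 1.5 times. Without RPMI plus B27 replicates 1, 2 and 3 in turn 2, 0 and 5 of the 30 fell, and without DMEM plus fatty acids replicates 1, 2 and 3 it was 1, 2 and 0. Calls over all genes dropped as well. In the same order 26, 3 and 122, and then 9, 10 and 2, of the 16425 to 16579 genes tested fell, against 172 of 16107 with all 6 libraries. The median stayed between -1.45 and -0.97 in these 6 fits. TAGLN2 kept its call in 3 of the 6, TPM4 in 2, TPM2 and CALD1 in 1 each, and LMOD1 and ACTB in 0, with adjusted p values of at most 0.123. CALD1 also lost its call under total counts (adjusted p 0.0520) and, with ACTB, under a filter of at least 10 counts in every library (0.0524 and 0.0501, edgeR).

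A CArG box stood in a promoter of 11 of the 25 muscle and cytoskeletal targets that matched the RefSeq table (44%), against 1.60% of the 27305 genes in it. Among the 6 that fell, TPM4 held one, ACTB had no match, and TAGLN2, TPM2, LMOD1 and CALD1 held none. All the other boxes of the list were in targets that did not pass without the block. The list is of genes already known as SRF targets, so a share above that of all genes could be foreseen. Whether the boxes bear on the fall was not tested. Boxes outside this window, such as those in introns, were not searched.

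The immediate early targets of SRF were tested as a second list of 10, with 1 fall and 0 rises, beside 1.07% of all genes that fell, and a median of -0.73. FOSB, a partner of JUN in the AP-1 factor, fell from 4.71, 6.81 and 3.24 CPM to 0.90, 1.14 and 0.53 CPM (log2 fold change -2.52 ± 0.41, adjusted p 0.0423, edgeR). NR4A1, an orphan nuclear receptor, passed with the block (adjusted p 0.0150) and not without it (-1.91 ± 0.39, 0.0671, edgeR), which gave 2 of 10 with the block, where 3.42% of all genes fell. IER2 (-0.73 ± 0.18) and FOS (-1.10 ± 0.38) had adjusted p values of 0.109 and 0.199. FOSB kept its call without RPMI plus B27 replicate 3 and lost it without each of the other 5 libraries, with adjusted p values up to 0.123.

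**Figure D3:**
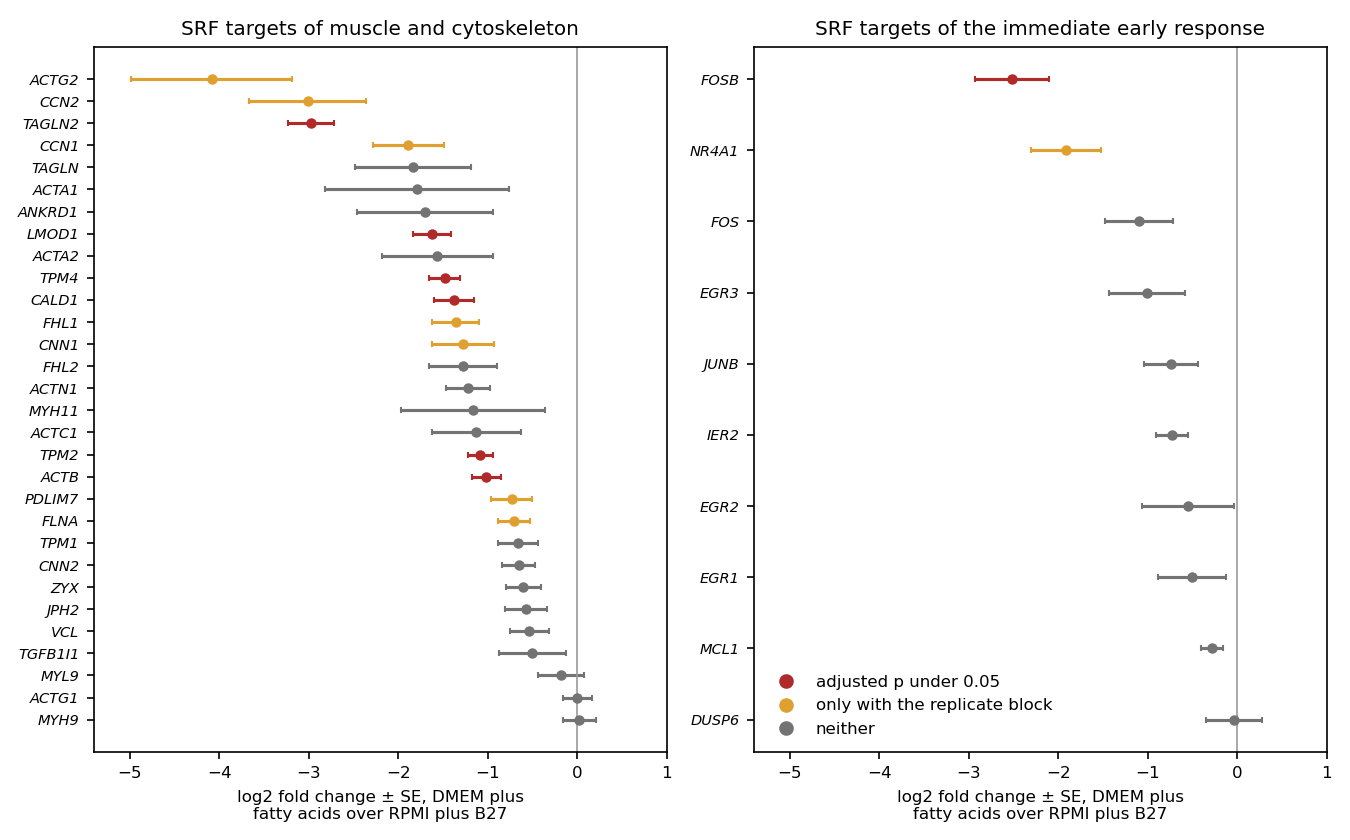
Log2 fold change ± SE of the SRF targets of muscle and cytoskeleton (left, 30 genes) and of the immediate early response (right, 10 genes), with genes past the threshold in red and those that passed with the block alone in yellow. Of the left list 28 genes lie below 0, and MYH9 and ACTG1 lie next to it.

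Genes that act on actin assembly upstream of these factors were listed separately. None of 17 passed in edgeR, where 1.36% of all genes did, and 0 passed with the block (4.78% of all genes) or by DESeq2. At an unadjusted p under 0.05 there were 3 of the 17, a share near the 17.7% of all genes, and the median log2 fold change was -0.13. CAP1 (cyclase-associated protein 1, which recycles monomeric actin) had 68.6 ± 1.76 against 50.8 ± 6.36 CPM (SD, n = 3; -0.43 ± 0.13, edgeR adjusted p 0.147). RHOB had -0.70 ± 0.23, RHOC -0.33 ± 0.14 and DIAPH2 -0.37 ± 0.18. Under scaling by total counts, which shifted the median of all genes from 0.01 to 0.12, the number of the 17 below 0 went from 16 to 12.

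Among 14 other partners of SRF, 2 fell and 0 rose, beside 1.07% of all genes that fell, with a median of -0.20 against 0.01 for all genes. HOPX, a homeodomain protein that binds SRF and limits its activity, fell from 144.9, 102.3 and 68.8 CPM to 22.8, 22.2 and 17.5 CPM (log2 fold change -2.34 ± 0.28, adjusted p 0.0270, edgeR). CSRP1, a LIM protein that bridges SRF and GATA factors in smooth muscle, fell from 228.0, 202.7 and 236.4 CPM to 46.0, 106.4 and 63.5 CPM (-1.63 ± 0.29, adjusted p 0.0492, edgeR). Neither gene's libraries overlapped between media. CSRP2 had -0.44 ± 0.11 and MEF2C, which stood higher in DMEM plus fatty acids, 0.39 ± 0.10, with adjusted p values of 0.109 and 0.123. HOPX kept its call without RPMI plus B27 replicate 1 or 3 and lost it without each of the other 4 libraries (adjusted p up to 0.0958), and CSRP1 kept its call without DMEM plus fatty acids replicate 2 and lost it without each of the other 5 (up to 0.125). CSRP1 also lost its call with all 6 libraries under total counts (0.0586) and under the filter of at least 10 counts in every library (0.0572, edgeR adjusted p).

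Relatives of the ABLIM proteins with LIM domains or a villin headpiece numbered 19, of which 2 fell, 0 rose and the median was -0.68, beside 1.07% of all genes that fell. LIMA1 (EPLIN, which stabilises actin filaments) fell from 28.6, 20.2 and 17.5 CPM to 6.03, 8.29 and 9.34 CPM (-1.48 ± 0.25, adjusted p 0.0456, edgeR), and CSRP1 is given above. With the block 8 of the 19 fell, where 3.42% of all genes did, among them FHL1 (-1.36 ± 0.26) and PDLIM3 (-2.40 ± 0.51), whose adjusted p values without the block were 0.0610 and 0.0755. LIMA1 lost its call without any 1 of the 6 libraries (adjusted p 0.0563 to 0.147). It also lost it under total counts (0.0631) and under the filter of at least 10 counts in every library (0.0557, edgeR), and as CSRP1 did too, 0 of the relatives passed in those 2 settings.

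ABLIM3 and SRF were each compared with the 10272 genes that reached a mean of 10 CPM in 1 medium or both, by Pearson's r of log2 CPM over the 6 libraries. The genes most like ABLIM3 were LRPPRC (r 0.996), LATS1 (0.993), RNF187, USP51 and ZNF33B (0.992 each), and 116 genes had an r over 0.95. Their log2 fold changes were 0.27 to 0.76, smaller than that of ABLIM3, since r compares the order and spacing of libraries and not the size. LRPPRC, for example, had 227.2, 247.4 and 245.4 CPM against 322.9, 288.4 and 297.4 CPM, with replicate 1 lowest in RPMI plus B27 and highest in DMEM plus fatty acids as for ABLIM3. The genes most like SRF were TNNC1 (cardiac troponin C, r 0.989), PRICKLE1 (0.987) and SECISBP2L (0.984), and 24 genes had an r over 0.95. TNNC1 shared with SRF its lowest value in DMEM plus fatty acids replicate 3 (627.5 CPM, against 1017 to 1459 CPM in the other 5). The points of such a correlation are grouped by medium and replicate number, so r also takes in the difference between media, on which ABLIM3 was picked.

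Summed markers of fibroblast, smooth muscle and epicardial cells were also lower in DMEM plus fatty acids, and those of endothelial cells were not. The summed level of 14 fibroblast and stromal markers was 4365 to 8612 CPM in RPMI plus B27 and 762.2 to 1964 CPM in DMEM plus fatty acids. Most of this sum in each library was the collagen genes COL1A1, COL1A2 and COL3A1. Of the 14, 7 fell (1.07% of all genes did), DCN being at 0 in 1 library. In all 13 had a value below 0 and 1, DDR2, a value above it (log2 fold change 0.31 ± 0.48). For 9 smooth muscle markers other than MYOCD the sum was 4159 to 4625 CPM and 1815 to 3805 CPM, and 7 of these 9 are also on the list of SRF targets. With MYOCD counted, 2 of the 10 fell (LMOD1 and CALD1). MYL9, the largest part of the sum in each library, overlapped between media (2197 ± 240 against 1934 ± 598 CPM, SD, n = 3). For 8 epicardial markers the sum was 1972 to 2394 CPM and 882.3 to 1097 CPM, of which the keratins KRT8, KRT18 and KRT19, found in many epithelia, made up 99.5% to 99.9% in each library. Of the 5 epicardial markers tested, 1 fell (KRT8). WT1 was at 0.34 to 0.87 and 0.07 to 0.15 CPM. The 7 endothelial markers summed to 30.4, 145.5 and 239.9 CPM against 115.3, 400.3 and 463.7 CPM (replicates 1 to 3). Each replicate number was thus higher in DMEM plus fatty acids, while the media overlapped. Nearly all of the sum was KDR, which passed as higher with the block (adjusted p 0.0245) and not without it (0.434, edgeR). With the block 1.36% of all genes rose. The other 2 of the 3 tested, TEK and TIE1, were lower, and PECAM1, CDH5, VWF and ERG were at 0 in at least 1 library. The sums of the 12 cardiomyocyte markers overlapped between media at 32205 to 39638 and 26173 to 36401 CPM, and TNNT2, which defines the cell type of the label, stood at 3001 to 4216 CPM in all 6 libraries. Of the 12 cardiomyocyte markers, 4 had no overlap between media (3 lower and 1 higher), beside 25.6% of all genes. These sums hide opposite differences without overlap, in 2 of these genes, named after their values were seen. The mean of MYH7 was 9638 against 4000 CPM and that of MYH6 4758 against 8653 CPM. Of the 12, 5 were higher and 7 lower, and 0 passed, where 1.36% of all genes did. With the block ACTN2 and MYH7 fell, where 3.42% of all genes did. The part of other cells in the values of the members and targets was not tested, and fewer cells of a type cannot be told apart from less RNA per cell.

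**Figure D4:**
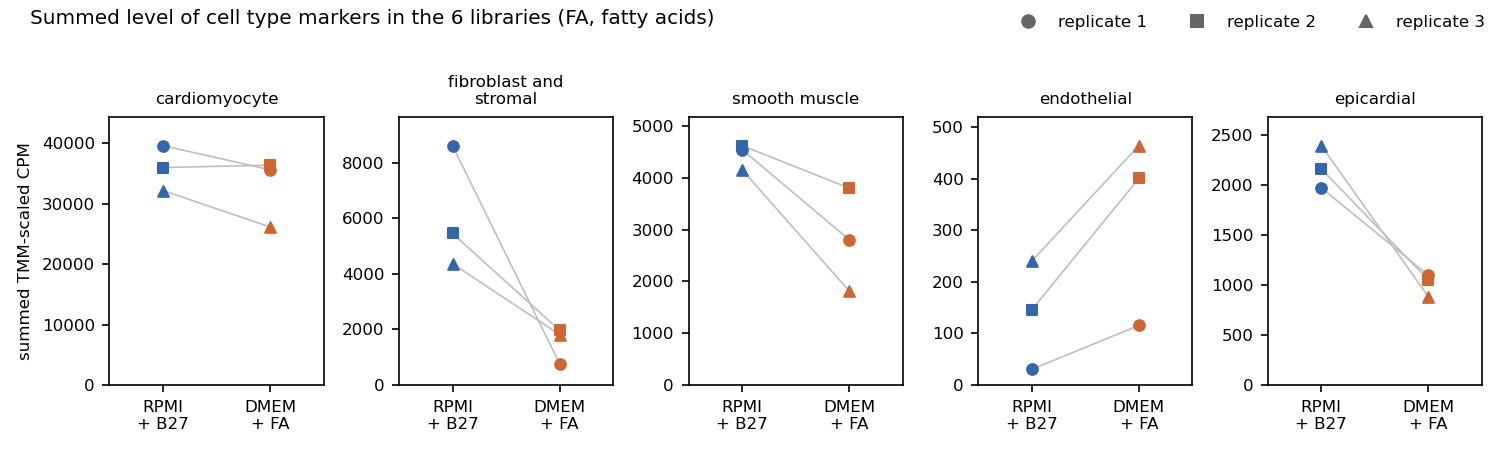
Summed TMM-scaled CPM of the markers of 5 cell types in each library, by medium, with lines joining libraries of the same replicate number and a separate axis from 0 for each type. Fibroblast, smooth muscle and epicardial sums are lower in each DMEM plus fatty acids library than in each RPMI plus B27 library, and the cardiomyocyte sums overlap.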

How the data were processed

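Gene counts came from 6 libraries, 3 a medium, and groups and replicate numbers were read from the titles. The authors deposited raw counts per gene symbol, 1 file a library. STAR, HTSeq and the build hg38 are named in the submitters' processing notes, without versions, and the annotation and strand setting are not given in the sources used here. Gene rows held 23232324 to 31035389 counts, or 84.4% to 87.2% of all rows. The htseq summary rows stayed out (5.44% to 7.57% without a feature). A count of 0 allows up to 0.0967 to 0.129 CPM (3 counts, counting error only).

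The test was that of edgeR 4.0.16, run in R 4.3.3 (filterByExpr with a minimum count of 10 and a total of 15, TMM, quasi-likelihood test without covariates, Benjamini-Hochberg, threshold 0.05), after a check on simulated data. Each standard error was derived from its F statistic. Alternatives were the replicate block, DESeq2 size factors, total counts, other filters, the DESeq2 1.42.0 Wald test and leaving out each library. Log2 CPM used a prior count of 2. Deviations from the medium mean correlated at 0.31, 0.43 and 0.37 for libraries sharing a number (titles) and at -0.24 to -0.14 otherwise. The numbers were therefore treated as pairing in the block fit, the sign-flip tests and the differences within replicate numbers. The main test and its intervals took no account of this pairing. Named genes were the members, up to 4 genes of smallest p per pathway list (ACTB and CALD1 added to give the whole count), and the 5 and 3 genes most like ABLIM3 and SRF. A gene that the rule also takes is not reported here. The members and lists were chosen with earlier results of these data known. Promoters are from RefSeq, exon lengths from GENCODE 29.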

Additional observations from a re-analysis of the deposited data

How the results depend on the processing

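The 219 genes called over all genes became 770 with the replicate block, 539 without a filter, 119 with at least 10 counts in every library and 1214 by the DESeq2 Wald test, and 3 to 131 when 1 library was left out. The lower share of calls went from 78.5% to 63.4% under total counts. The 6 muscle and cytoskeletal targets became 13 with the block, 11 without a filter and 15 by DESeq2 (settings chosen for lists after seeing the data), and 0 to 5 without 1 library. Fewer samples enter the latter fits. Of the members, SRF, MYOCD, MRTFA and ABLIM3 kept their sign in all 12 alternatives, ABLIM3 at 2.67 to 3.44. MRTFB was -0.0020 with DESeq2 size factors and ran from -0.12 to 0.093 without 1 library. ABLIM1 was 0.016 under total counts and ran from -0.26 to 0.054, and ABRA from -0.38 to 1.08. The log2 difference in the ratio of MYOCD to SRF ran from -0.14 to 0.36. The cause of these sign changes was not tested. No member passed in any of its 12 alternatives, ABLIM3 aside, which was not tested. Pairing by replicate number (a sign-flip test with 3 pairs, which cannot go under 0.25) gave the ratios a p of 0.25 to 0.75, and the block changed no call of a tested member. ABLIM3 in RPMI plus B27, at 69 to 166 counts, is the least deeply counted member.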
